A study of Saccharomyces cerevisiae with 4 samples.

Results

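The genes described here encode the high-affinity iron uptake system of Saccharomyces cerevisiae and the wall proteins that work with it. There are 10 of them among the 5539 genes named on the array, taken by gene symbol: FIT1, FIT2, FIT3, ARN1, ARN2, SIT1 (also called ARN3), ENB1 (also called ARN4), FET3, FTR1 and FRE1. Every one had 2 spots on the array and a value on all 4 arrays. Each array set RNA from BY4741 cells that lack SLT2, kept for 4 h with Congo red at 30 µg/ml, against RNA from untreated cells of the same slt2 strain, grown in YEPD at 24 °C. Both RNAs come from the deletion strain, so no comparison here shows what SLT2 does. Congo red binds chitin and disturbs the cell wall, and SLT2 encodes the kinase at the end of the cell wall integrity pathway.

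Yeast takes up iron by parallel routes. In the reductive route, surface reductases such as Fre1 release iron as the ferrous ion, and a plasma membrane complex of the multicopper oxidase Fet3 and the permease Ftr1 brings it in. In the other route, transporters of the Arn family carry whole iron complexes of siderophores, small chelators that other microbes secrete, while the mannoproteins Fit1, Fit2 and Fit3 sit in the cell wall and help to retain those complexes. When iron is short the transcription factors Aft1 and Aft2 induce most of these genes.

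Values are log2 ratios of Congo red-treated over untreated RNA, averaged over the spots of a gene, after the median of each array was set to 0. The treated RNA was in channel 2 on arrays 1 and 3 and in channel 1 on arrays 2 and 4, and the ratios of arrays 2 and 4 were turned to match. The direction is likely only: it takes channel 2 as the numerator of the deposited ratios, and if channel 1 was, every sign is opposite, all together. Before turning, the correlation over spots was -0.38 to -0.19 between arrays that differed in channel order, and 0.27 and 0.31 between arrays that shared it. Had treated over untreated been deposited on every array, the turned values would follow channel order and not treatment. Between 84.1% and 90.9% of 12800 spots on an array were usable, that is, neither missing nor at the largest value of 16.61. Spot brightness was not used. SLT2, deleted in both RNAs, still gave log2 ratios of 1.48, -1.29, -1.51 and -1.14 on arrays 1 to 4. A ratio alone therefore does not show that RNA of a gene was present. With 4 arrays, their number limits the precision. The labels do not say whether the arrays came from separate cultures, and the p-values therefore cover the variation among these arrays alone, part of which may be technical.

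Mean ratios of the iron uptake genes lay on both sides of 0. The siderophore transporter gene ARN2 had the highest mean ratio, 1.81 ± 0.98 (SD, n = 4), and the reductase gene FRE1 followed at 0.81 ± 0.39. The wall mannoprotein gene FIT2 had the lowest, -0.78 ± 0.28. FIT2 fell in the agreeing-spot analysis, limited to genes with at least 2 spots within 1 log2 unit of each other on every array (adjusted p = 0.0171, limma). That spot filter came from an earlier analysis of these data that had seen its calls, and its p-values take no account of that. No member passed in the analysis of all measured genes, where limma called 0 of 4481 genes (0%) at an adjusted p under 0.05, with a smallest adjusted p of 0.0522. There 4 of the 10 members and 1234 of all genes (27.5%) had an unadjusted p under 0.05. The members' median was 0.08, beside 0.02 over all genes.

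Of the 10 members 3 were higher on all 4 arrays (ARN2, FRE1 and ENB1), where 20.4% of all genes were. Another 2, FIT2 and FIT3, were lower on all 4, where 21.3% of all genes were. Together 5 of the 10 kept 1 sign, against 41.7% of all genes. An exact permutation of the signs of 4 arrays cannot give a two-sided p below 0.125, which each of these 5 genes reached. In the order of the means, FRE1 followed ARN2, then ENB1, FET3, FIT1, ARN1, SIT1, FTR1, FIT3 and FIT2. ARN2 exceeded FRE1, its neighbour in that order, on 4 of 4 arrays, by 1.01 ± 0.67. Each of the other neighbouring genes in that order differed by less than 1 SD of their difference over the arrays.

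**Figure D1:**
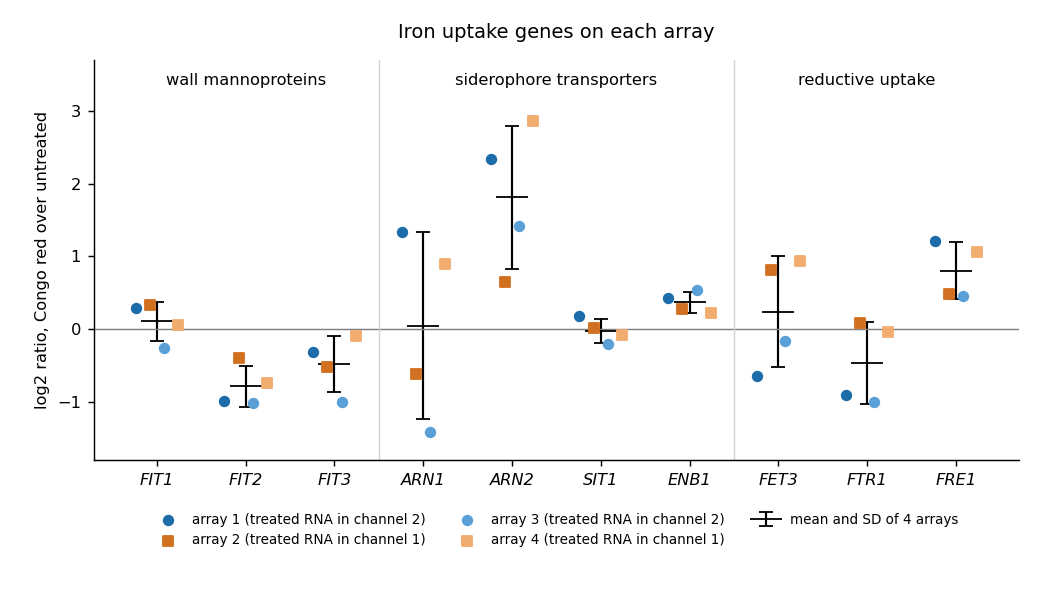
Log2 ratio of Congo red-treated over untreated RNA (vertical axis) of each gene on each array, grouped by role. Circles are arrays 1 and 3, squares are arrays 2 and 4, and the black bars give the mean and SD of the 4 arrays. ARN2 lies above 0 on every array and FIT2 below it, while ARN1 spans 2.74 log2 units and FET3 separates by channel order.

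FIT2 encodes a glycosylphosphatidylinositol-anchored mannoprotein of the wall. On arrays 1 to 4 its log2 ratio was -0.98, -0.40, -1.01 and -0.74. All 4 values lie below 0, and the smallest difference was on array 2. The mean corresponds to 0.582-fold, with an adjusted p of 0.0740 (limma, all genes) and a 95% interval of the log2 ratio from -1.19 to -0.37. Its spots agreed closely, with a largest gap of 0.24 on any array, and FIT2 was therefore among the 2804 genes of the agreeing-spot analysis. Limma called 16.8% of those genes, 5.31% higher and 11.5% lower. FIT2 was the only one of the 7 members in that analysis to pass.

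The call of FIT2 held without array 1 (adjusted p = 0.0452, limma) and without array 2 (0.0190). It did not last when array 3 (adjusted p = 0.0953, limma) or array 4 (0.0765) was left out, where limma called 0 genes in all. The means of -0.70 and -0.79 without those arrays were close to the full value. FIT2 spans 462 bp, and short genes had lower ratios on these arrays: 385 other genes of 0.8 to 1.2 times its length had a median of -0.26. FIT2 lay at percentile 7.53 among them. After the trend with gene length was removed from the agreeing-spot values, its mean was -0.52 and it did not pass (adjusted p = 0.0775, limma).

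FIT3, which encodes a wall mannoprotein of the same kind, lies next to FIT2 in the genome (assembly R64). Its log2 ratio was -0.32, -0.52, -0.99 and -0.09 on arrays 1 to 4. All were below 0, and array 4 was close to it. The mean of -0.48 ± 0.38 had an adjusted p of 0.183 over all genes and 0.0848 over genes with agreeing spots (limma). FIT3 spans 615 bp, and 577 genes of similar length had a median of -0.17, with FIT3 at percentile 21.1 among them. With the length trend removed from the agreeing-spot values, its mean was -0.31 (adjusted p = 0.243, limma). FIT2 and FIT3 differed by -0.30 ± 0.41 (FIT2 minus FIT3), less than the spread between arrays, and FIT2 was the lower on 3 of 4.

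FIT1, the longest of the wall mannoprotein genes at 1587 bp, showed neither direction. Its log2 ratio was 0.29, 0.34, -0.26 and 0.07 on arrays 1 to 4, with only array 3 below 0. The mean was 0.11 ± 0.27 (adjusted p = 0.676, limma), with a 95% interval from -0.29 to 0.51. That mean lies near 0.12, the median of 1015 genes of similar length.

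ARN2 encodes the transporter of the siderophore triacetylfusarinine C. On arrays 1 to 4 it had log2 ratios of 2.34, 0.65, 1.42 and 2.86. All 4 arrays were high, but the ratio on array 4 exceeded that on array 2 by 2.21 log2 units. The mean of 1.81 corresponds to 3.52-fold, and its 95% interval ran from 0.78 to 2.85 (adjusted p = 0.0826, limma). It lay at percentile 98.9 of the means of all 4481 genes. Its SD of 0.98 lay at percentile 84.6.

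The spots of ARN2 agreed in sign on every array but not in size. They gave 2.11 and 2.57 on array 1, 0.97 and 0.32 on array 2, 0.70 and 2.13 on array 3, and 3.22 and 2.49 on array 4. The gap of 1.42 on array 3 alone kept ARN2 out of the agreeing-spot analysis. With array 3 left out it entered, at 1.95 ± 1.16 (n = 3, adjusted p = 0.0724, limma). Taken from the first spot only, the mean was 1.75, and from the second spot only 1.88. As deposited, the second spot on array 1 stood at exactly 3 and the first spot on array 3 at exactly 1. Spot brightness was not used, so whether the spots of ARN2 lay near background was not tested. Without centring the arrays, ARN2 passed over all genes (1.90, adjusted p = 0.0342, limma), in a setting where 93 of 4481 genes did. ARN2 passed in no other setting.

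ARN1, the ferrichrome transporter, had no stable ratio. The 4 arrays gave log2 ratios of 1.33, -0.62, -1.41 and 0.90 in turn, with 2 arrays on each side of 0. The mean was 0.05 ± 1.28 (adjusted p = 0.953, limma), and an SD of this size lay at percentile 90.3 of all genes. Its second spot had no value on array 1. Its spots differed by 1.48 on array 2, at -1.35 and 0.12, and by 1.29 on array 4, at 1.55 and 0.25. ARN2 exceeded ARN1 on 4 of 4 arrays, by 1.76 ± 0.82. Whether RNA of related Arn family genes binds to each other's spots was not tested.

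SIT1, which imports ferrioxamine B, was close to 0 throughout. Arrays 1 to 4 gave log2 ratios of 0.18, 0.02, -0.20 and -0.08. The mean was -0.02 ± 0.16 (adjusted p = 0.930, limma) with a 95% interval from -0.35 to 0.31. Its spots lay within 0.10 of each other on every array, closer than those of any member but FTR1 (0.08).

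ENB1, the transporter of enterobactin, was a little higher on every array. Its log2 ratio was 0.43, 0.28, 0.54 and 0.22 on arrays 1 to 4. The mean of 0.37 ± 0.14 corresponds to 1.29-fold. The SD was the smallest of the members, at percentile 8.70 of all genes. The adjusted p was 0.149 over all genes and 0.0783 over genes with agreeing spots (limma), so it did not pass.

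**Figure D2:**
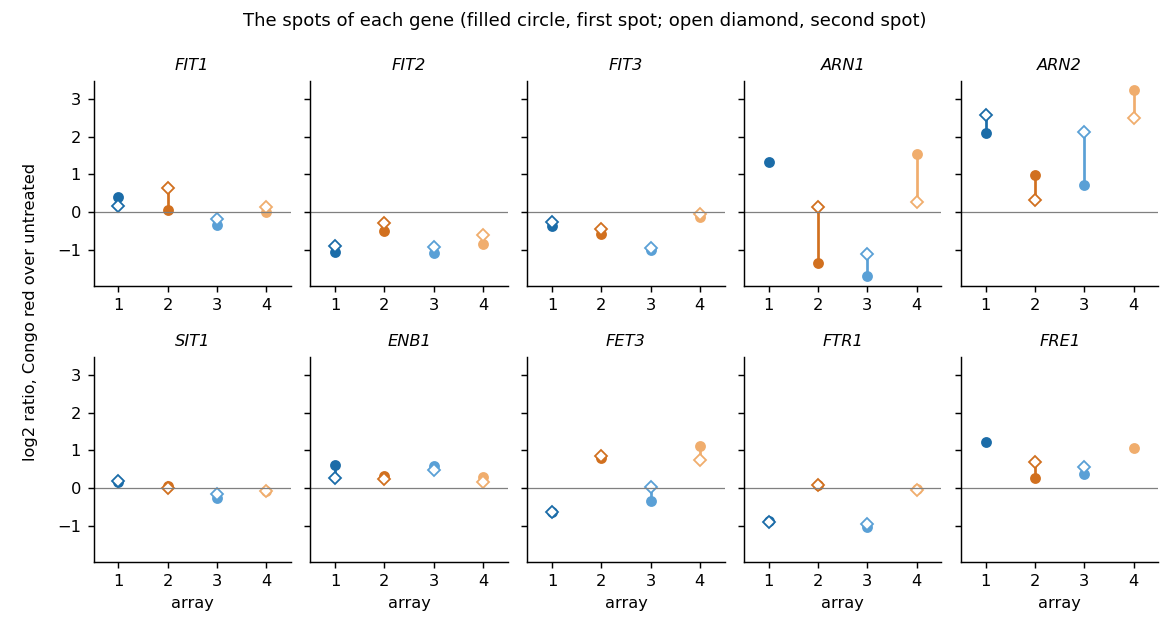
Log2 ratio of Congo red-treated over untreated RNA (vertical axis) of the first and second spot of each gene on arrays 1 to 4 (horizontal axis), joined by a line. SIT1, FTR1 and FIT3 spots nearly coincide, ARN1 and ARN2 have gaps of up to 1.48 and 1.42, and ARN1 and FRE1 lack a spot on some arrays.

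FRE1 encodes a ferric and cupric reductase of the plasma membrane. Its log2 ratio was 1.21, 0.48, 0.46 and 1.07 on arrays 1 to 4. All arrays were above 0, with arrays 1 and 4 the higher ones. The mean of 0.81 ± 0.39 corresponds to 1.75-fold (adjusted p = 0.0887, limma, 95% interval of the log2 ratio from 0.32 to 1.30). The second spot had no value on arrays 1 and 4, so the higher values rest on a single spot each. FRE1 was for that reason not part of the agreeing-spot analysis.

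FET3 encodes the multicopper oxidase of the uptake complex. The log2 ratio of FET3 was -0.64, 0.82, -0.16 and 0.93 on arrays 1 to 4. Both arrays with the treated RNA in channel 2 were below 0 and both with it in channel 1 were above. The mean was 0.24 ± 0.76 (adjusted p = 0.648, limma), and without array 4 it was 0.0090. Before turning, the centred ratio of the channels was -0.64, -0.82, -0.16 and -0.93, below 0 on every array whichever channel held the treated RNA, as for 3.55% of all genes, while 3.91% were above 0 on every array.

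FTR1 encodes the permease that works with Fet3. Its log2 ratio was -0.90, 0.08, -0.99 and -0.04 on arrays 1 to 4. Arrays 1 and 3 were low and arrays 2 and 4 close to 0. The mean was -0.46 ± 0.56 (adjusted p = 0.278, limma). FET3 exceeded FTR1 on 4 of 4 arrays, by 0.70 ± 0.31.

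A second coefficient for channel order, fitted together with the treatment, measured how far each ratio followed the channel. It was -0.64 for FET3 and -0.48 for FTR1 (unadjusted p = 0.0147 and 0.0200, adjusted p = 0.872 for both, limma). The log2 ratio of FET3 averaged -0.40 with the treated RNA in channel 2 and 0.88 with it in channel 1. That of FTR1 averaged -0.94 with the treated RNA in channel 2 and 0.02 with it in channel 1. Limma called 0 of 4481 genes for channel order at an adjusted p under 0.05, and 182 (4.06%) had an unadjusted p under 0.05. The channel order coefficient exceeded the treatment coefficient in size for FET3, FTR1 and ARN1, 3 of the 10 members, and for 30.3% of all genes. For ARN2 and FRE1 it was 0.06 and 0.03, far below their treatment coefficients.

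**Figure D3:**
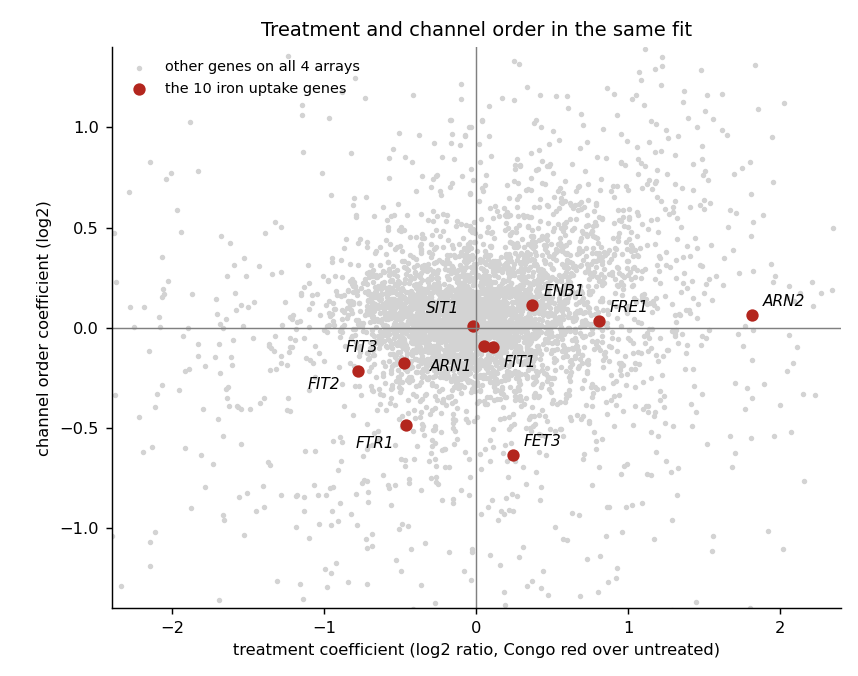
Treatment coefficient (horizontal axis) against channel order coefficient (vertical axis), both in log2 units, for each gene measured on all 4 arrays. The iron uptake genes are red, and 61 genes lie beyond the axes. ARN2 lies far along the treatment axis with a channel order coefficient of 0.06, and FET3 and FTR1 are the members lowest on the channel order axis.

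For likeness, the Euclidean distance over the 4 array values was taken between each member and all 4480 other genes. The closest matches were MKC7 to SIT1 (0.078), GYP8 to FIT1 (0.094) and NUP159 to ENB1 (0.15). In each case these are small ratios that resemble each other. The nearest other member was FTR1 for both FIT2 and FIT3, at distances of 0.85 and 0.83, with 221 and 580 genes closer. For ARN2 it was FRE1, at 2.32, with 205 genes closer.

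Other genes of iron handling came from lists of textbook membership, chosen with earlier results of these data known. They numbered 90 on the array. Of these, 76 had a value on all 4 arrays, with a median of 0.0030. None was called over all genes by limma, and 22 (28.9%) had an unadjusted p under 0.05, against 27.5% of all genes. In the agreeing-spot analysis 4 of 48 rose (8.33%, against 5.31% of all genes) and 5 fell (10.4%, against 11.5%). Their median was -0.12, beside -0.06 over all genes in that analysis.

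The genes that fell all belong to the list of iron-sulfur cluster assembly, where 5 of 12 fell and 1 rose, while 11.5% of all genes in that analysis fell and 5.31% rose. NBP35, a scaffold of the cytosolic machinery, stood at -0.97 ± 0.44, and YAH1, the mitochondrial ferredoxin, at -0.60 ± 0.12. ISA2 (-0.61 ± 0.42), ISU2 (-0.54 ± 0.27) and GRX5 (-0.43 ± 0.07) act in the mitochondrial part. ARH1, the reductase of that ferredoxin, rose to 0.72 ± 0.53. Their adjusted p lay between 0.0159 and 0.0482 (limma). In the list, 19 genes had a value on all 4 arrays, with a median of 0.04. Of these, 4 were higher on every array (20.4% of all genes were) and 7 were lower (21.3% were). The highest mean, 2.11, came from a gene that did not meet the spot filter. YAH1, ISA2, ISU2 and GRX5 span between 453 and 558 bp. With the length trend removed, NBP35 still passed (-0.97, adjusted p = 0.0323, limma). GRX5 (-0.17), ISU2 (-0.29), YAH1 (-0.37) and ISA2 (-0.41) shrank and did not pass, and ARH1 did not pass at a mean of 0.64. With runs of 400 spots centred in the analysis of all genes, NBP35 stood at -0.43 and ISA2 at -0.07, and neither passed (adjusted p = 0.0802 and 0.687, limma). YAH1 passed there, at -0.83 (adjusted p = 0.0412, limma). Without array 2 ISA2 stood at -0.40, more than 1.5 times smaller, and did not pass.

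In the other lists few genes passed. Of the list of other metal transport, 2 of 9 rose in the agreeing-spot analysis, where 5.31% of all genes did: SMF1, a manganese transporter (0.69 ± 0.49), and RIM2, a mitochondrial carrier also linked to iron (0.65 ± 0.25). Of the copper supply list 1 of 6 rose, against the same 5.31%, GEF1 (0.76 ± 0.28), a chloride channel of the secretory pathway that the copper loading of Fet3 needs. Their adjusted p lay between 0.0173 and 0.0451 (limma). SMF1 did not pass after removal of the length trend (0.59, adjusted p = 0.0944). Without array 1 ARH1 (0.49), GRX5 (-0.46), ISA2 (-0.68), RIM2 (0.54) and SMF1 (0.64) did not pass. Without array 2 ARH1 (0.77), GRX5 (-0.44), ISU2 (-0.58), SMF1 (0.82) and YAH1 (-0.59) did not. Among the genes of these lists only NBP35 and GEF1 passed in both cases, as did the member FIT2. Without array 3 or array 4 limma called 0 genes, with 724 and 904 at an unadjusted p under 0.05.

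The list of iron sensing and control had 9 genes with a value on all 4 arrays, and none passed. Only 3 of them were in the agreeing-spot analysis, where 16.8% of all genes passed. In that list HMX1, the haem oxygenase, had 1.23, 1.07, 0.45 and 2.19 on arrays 1 to 4 (mean 1.23 ± 0.72, adjusted p = 0.0956, limma), and BOL2, a regulator of Aft1, stood at -0.59 ± 0.21 (adjusted p = 0.0885). HMX1 was higher and BOL2 lower on 4 of 4 arrays. Neither met the spot filter.

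**Figure D4:**
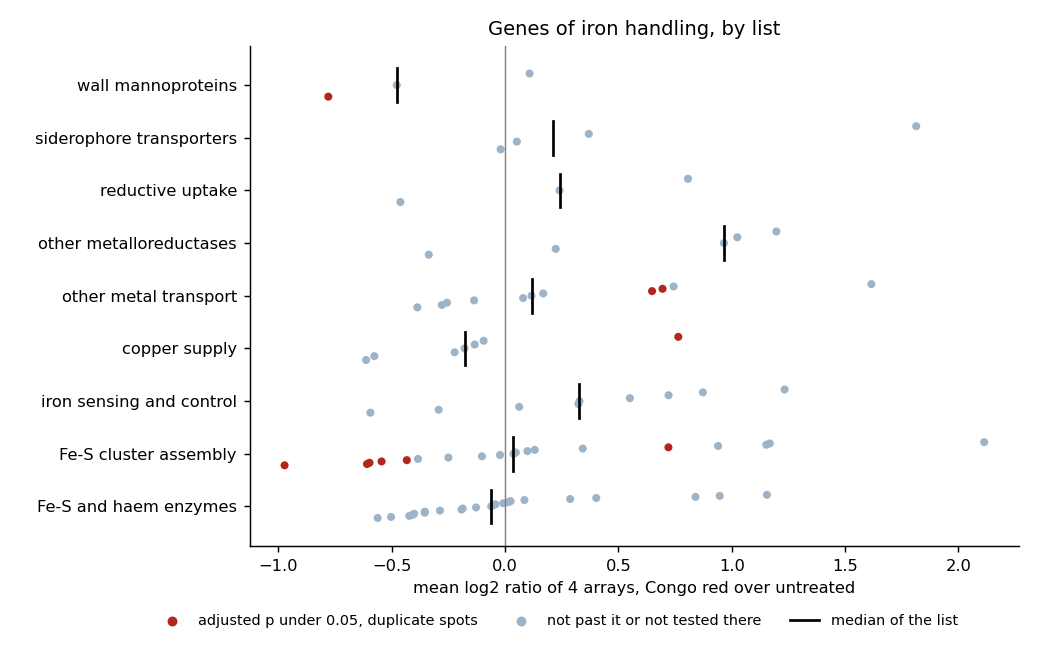
Mean log2 ratio of Congo red-treated over untreated RNA over 4 arrays (horizontal axis) for each measured gene of the iron lists. Red marks genes past an adjusted p of 0.05 in the agreeing-spot analysis and black lines are list medians. Of the cluster assembly list, 5 red genes lie between -0.97 and -0.43 and 1 lies at 0.72. The list's median is 0.04 over its 19 genes drawn, and -0.32 over the 12 in the agreeing-spot analysis.

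The turning of arrays was the processing choice that moved ARN2, FRE1 and FIT2 most. With no array turned, the means of ARN2 (0.06), FRE1 (0.03), FIT2 (-0.21) and FIT3 (-0.18) shrank towards 0 and that of FET3 became -0.64. Under that reading limma called 0 of 4481 genes at an adjusted p under 0.05, and 70 had an unadjusted p under 0.05. FTR1 kept -0.48. Over all other settings ARN2 stayed between 1.47 and 2.20, FRE1 between 0.66 and 0.92 and FIT2 between -0.95 and -0.52.

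**Figure D5:**
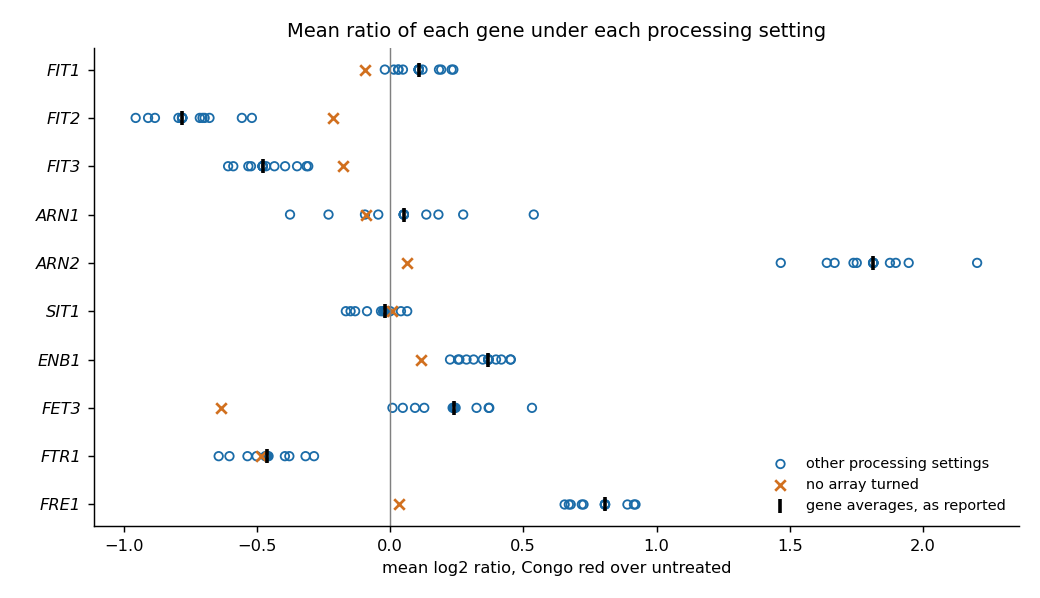
Mean log2 ratio of Congo red-treated over untreated RNA (horizontal axis) of each gene in the analysis of all genes (black) and under the other settings (blue circles), left-out arrays included. Orange crosses are the means with no array turned. They equal the channel order coefficient and, in the orientation used here, are not ratios of treated over untreated RNA. ARN2, FRE1, ENB1, FIT2, FIT3 and FTR1 keep their side of 0 under every setting drawn, and ARN1, SIT1, FIT1 and FET3 do not. FET3 leaves its side only with no array turned.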

How the data were processed

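Two-channel arrays of slt2 cells were used, 4 in number and in 1 group. What the authors deposited is 1 log2 channel ratio per spot. The sources used here do not give the scanner, filters, normalization, dyes or numerator. A largest value of 16.61, the log2 of 100000, was set to missing. Array medians before centring ran from -0.25 to 0.64. Gene symbols came from the platform annotation (11138 spots with 1 gene, none with several, 1662 with none) and were updated through the gene table of assembly R64 for 5534 of 5539 genes. Spots were averaged per gene, and limma 3.58.1 (lmFit, eBayes; R 4.3.3) tested each gene's mean ratio for a difference from 0, adjusted over all genes by Benjamini-Hochberg. The agreeing-spot analysis kept genes with at least 2 spots within 1 log2 unit on every array. An earlier analysis of these data had chosen that filter after seeing its calls. The members and lists were chosen with earlier results of these data known. Members are all named, and in each other list the genes past the threshold, or else the 2 with the largest moderated t. The length trend was a loess fit per array (span 0.4). Code was tested on simulated data. Alternatives covered centring, spot averaging, turning, length, channel order, filters and left-out arrays. Sequences of these genes were not used here.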

Additional observations from a re-analysis of the deposited data

Results flagged for a closer look

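FET3 had ratios of opposite sign in the 2 channel orders, with a channel order coefficient of -0.64, and the test of that coefficient did not pass (adjusted p = 0.872, limma). Of 30 named genes examined for an array apart from the others, 2 had one, both on array 2 and neither a member, and chance marks about 1 gene in 20. ISA2 stood at -1.23 there, against -0.45 for the nearest array. NBP35 stood at -1.625, against -0.80. Without array 2 NBP35 stood at -0.76 and still passed in the agreeing-spot analysis.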

How the results depend on the processing

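In the analysis of all genes limma called 93 genes without centring, 214 with runs of 400 spots centred, 25 with the length trend removed, 472 with the spot filter and 201 with filter and length removal together, against 0 as reported. Members called were 1 without centring (ARN2), 1 with centred runs (FIT2) and 1 with the spot filter (FIT2). In the agreeing-spot analysis leaving out an array gave 0 to 336 calls (215 without array 2), with 0 to 1 member, and removal of the length trend gave 201 calls and 0 members. With no array turned, where the mean equals the channel order coefficient, FIT1 (-0.10), ARN1 (-0.090), SIT1 (0.0090), FET3 (-0.64), BOL2 (0.18), CTA1 (-0.21), GEF1 (-0.0055), HMX1 (-0.40), ISA2 (0.23), ISU2 (0.059), NBP35 (0.24), SMF1 (-0.13) and YAH1 (0.063) took the opposite sign. So did SIT1 without centring (0.064), FIT1 (-0.020) and ARN1 (-0.094) without the length trend, and ARN1 from first spots (-0.044). Leaving out an array moved ARN1 between -0.38 and 0.54, SIT1 between -0.086 and 0.041, and GEX1 between -0.028 and 1.66. FIT1 was 0.048, 0.030 and 0.23 without arrays 1, 2 and 3, and FET3 was 0.53, 0.048, 0.37 and 0.0090 without arrays 1, 2, 3 and 4. Without array 3 FTR1 was -0.29 and FIT3 -0.31, and GEX2 was -1.83 without array 2 and -0.40 without array 3. With centred runs FIT1 stood at 0.24, FET3 at 0.37, ARN1 at 0.18, SIT1 at -0.15 and GEX1 at 0.37. The cause was not tested. The uses of single spots and of filter with length removal were chosen after seeing the data. With trend and robust options the trend ran over mean ratios, since brightness was not used here. Treated and untreated RNA were paired within each array by its ratio. No pairing between arrays was made, since they form 1 group.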

Other observations

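Of the list of other metalloreductases and related genes, 5 of 8 had a value on all 4 arrays, with a median of 0.97, and none passed. AIM14 stood at 0.97 ± 0.65 and was higher on 4 of 4 arrays (adjusted p = 0.119, limma). FRE7, at 1.02 ± 1.23, was higher on arrays 1, 3 and 4 and at -0.61 on array 2. Its mean was 0.62 without array 4 and 1.57 without array 2. Only 1 gene of the list met the spot filter, and 16.8% of all genes that met it passed.

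Enzymes that carry iron-sulfur clusters or haem, with those of haem synthesis, had a median of -0.06 over 23 genes. Of 17 in the agreeing-spot analysis none passed, while 16.8% of all genes there did. CTA1, the peroxisomal catalase, stood at 0.95 ± 0.45 and HEM15, which inserts iron into haem, at 0.40 ± 0.21, both higher on 4 of 4 arrays (adjusted p = 0.0826 and 0.154, limma, all genes). GEX1 (0.59 ± 2.21) and GEX2 (-0.997 ± 1.81), glutathione exporters related to the siderophore transporters, had the widest spread of the named iron genes. On array 4 GEX1 was at -2.59 and GEX2 at -1.09.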
